A study of Homo sapiens with 9 samples.

Results

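The 10 genes described here are transcription factors and cofactors of the erythroid and megakaryocytic lineages: GATA1, GATA2, KLF1, TAL1, LMO2, LDB1, GFI1B, NFE2, RUNX1 and MYB. They were taken by name, with no cut on a measured value, but earlier results of these data were known when they were chosen. All 10, of 58214 genes with a matched transcript, exceeded 1 TPM in every library and passed the filter on low counts. Poly(A) RNA was sequenced from K562, a line of human erythroleukaemia cells that the labels spell K562 in the titles and K652 elsewhere. The 9 libraries fell into 3 groups of 3: cells given non-targeting siRNA (SCR, with WT as the labelled treatment), siRNA against DHX34, and siRNA against UPF1, all transfected again on day 3 and harvested on day 4 after the first transfection. UPF1 is a core factor of nonsense-mediated decay (NMD), which degrades transcripts whose stop codon lies well upstream of the last exon junction, and the helicase DHX34 also takes part in it. The comparisons ask which transcripts each depletion changed, in a line whose knockdown was transient and partial.

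GATA1 and TAL1 act in one DNA-bound complex, in which LMO2 and LDB1 bridge GATA1 on its GATA motif to TAL1 and an E-protein on an E-box. KLF1 binds CACCC motifs of globin and other red cell genes, NFE2 binds the globin locus control region with small MAF proteins, and GFI1B is a repressor of both lineages. GATA2, RUNX1 and MYB are known from stem and progenitor cells: GATA2 gives way to GATA1 during erythroid maturation, RUNX1 is needed for megakaryocytes, and MYB keeps progenitors dividing.

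Both siRNAs lowered their own target. DHX34 was at 72.3, 74.0 and 74.5 CPM (read counts per gene relative to the library's total, scaled by TMM size factors) in SCR and at 30.1, 30.0 and 34.0 CPM after DHX34 siRNA, or 42.6% of SCR (adjusted p = 3.33e-07). UPF1 was at 252, 266 and 266 CPM in SCR and at 105, 107 and 105 CPM after UPF1 siRNA, or 40.2% of SCR (adjusted p = 2.41e-10). Library totals ran from 73478797 to 103625443 expected counts. The labels do not say that the 3 replicates of a group were separate cultures. The study calls them biological replicas, of which 3 out of 4 were sequenced. All 10 genes of an erythroleukaemia list (among them GATA1, TAL1, LYL1, TFRC, EPOR and 4 globins) were above 1 TPM in every library.

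In length-scaled units, which allow genes to be compared, GATA1 was the highest of the 10 in SCR at 198 ± 4.78 TPM (SD, n = 3 here and below), followed by NFE2 at 172 ± 3.84, KLF1 at 154 ± 3.64, GATA2 at 129 ± 2.08 and LMO2 at 123 ± 2.06 TPM. LDB1 at 69.9 ± 3.48 and MYB at 69.5 ± 3.06 TPM overlapped in their libraries, and GFI1B (62.5 ± 2.65), TAL1 (34.6 ± 1.43) and RUNX1 (17.1 ± 1.03 TPM) came last. The other neighbours in this order did not overlap in their 3 SCR libraries. LMO2 owed 43.5% of its TPM in SCR to one 390-base transcript, LMO2-206, for which no coding region is defined, so its place depends on how reads were assigned to that short transcript.

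Depletion of UPF1 lowered 6 of the 10 factors and raised 2. LMO2 fell furthest, NFE2, KLF1, GATA2, GATA1 and GFI1B fell by less, RUNX1 and MYB rose, and TAL1 and LDB1 were not called (TAL1 was, at -0.18 with an adjusted p of 0.000709, once trends with gene length and GC content were removed). Depletion of DHX34 lowered GATA2 and LMO2 and raised RUNX1, the last a call that was lost whichever of the 6 libraries was dropped. A gene was called changed at an adjusted p of at most 0.005 (edgeR quasi-likelihood test, Benjamini-Hochberg over all genes tested). In the UPF1 comparison 12.9% of the 17184 genes tested were called lower and 12.4% higher, against 6 and 2 of the 10 factors, and the median log2 fold change was -0.29 over the factors and 0.02 over all genes. In the DHX34 comparison 4.86% of 17004 genes were called lower and 5.54% higher, against 2 and 1 of the 10, with medians of -0.04 and 0.02. The SCR libraries are shared by both comparisons.

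**Figure D1:**
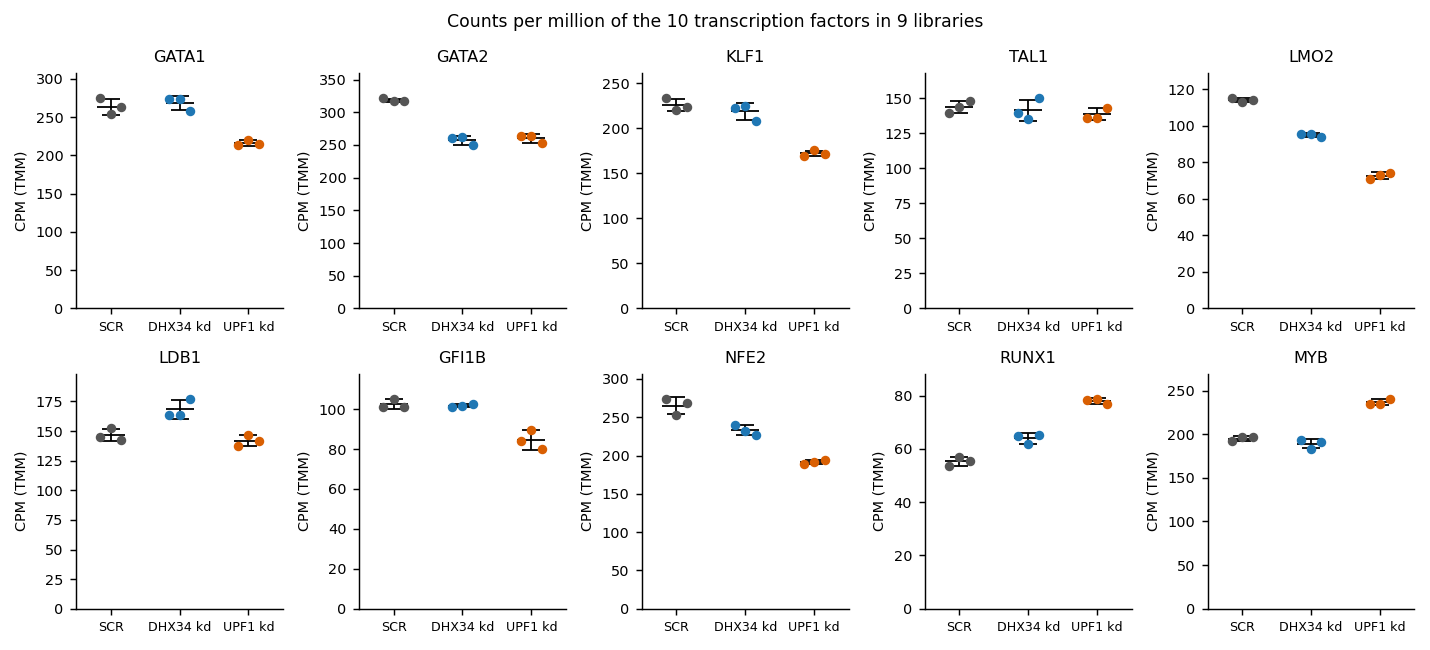
CPM (TMM-scaled, linear axis from 0) of each of the 10 factors, with 1 point per library and the mean and SD of each group of 3. LMO2 steps down from 114 CPM (SCR) to 94.9 after DHX34 siRNA and 72.6 after UPF1 siRNA, and RUNX1 steps up from 55.4 to 64.0 and 78.0 CPM.

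Among the lineage-restricted factors, GATA1, the master regulator of red cell and platelet precursors (ENSG00000102145, chrX:48786540-48794311, plus strand), stood at 274, 254 and 263 CPM in SCR, at 274, 274 and 258 CPM after DHX34 siRNA and at 213, 219.8 and 216 CPM after UPF1 siRNA. All 3 UPF1 libraries lay below the other 6, while SCR and the DHX34 knockdown overlapped. The log2 fold change of GATA1 was -0.29 ± 0.032 (SE) with UPF1 depleted (adjusted p = 1.83e-05) and 0.02 ± 0.043 with DHX34 depleted (adjusted p = 0.736).

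KLF1, the erythroid Krüppel-like factor (ENSG00000105610, chr19:12884422-12887201, minus strand), gave 233, 220.3 and 223 CPM in SCR, 223, 225 and 208 CPM after DHX34 siRNA, and 169, 175 and 172 CPM after UPF1 siRNA. The UPF1 libraries again lay below all others. Its log2 fold change was -0.40 ± 0.030 with UPF1 depleted (adjusted p = 1.31e-06) and -0.05 ± 0.044 with DHX34 depleted (adjusted p = 0.479).

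NFE2, the p45 subunit of the globin-activating NF-E2 dimer (ENSG00000123405, chr12:54292111-54301015, minus strand), was measured at 274, 253 and 268 CPM in SCR, 239.9, 232 and 227 CPM after DHX34 siRNA and 189, 192 and 194 CPM after UPF1 siRNA. No library of one group overlapped another group. The log2 fold change was -0.48 ± 0.032 with UPF1 depleted (adjusted p = 4.95e-07), and with DHX34 depleted it was -0.19 ± 0.041 and missed the threshold (adjusted p = 0.00652). DESeq2 called that second difference, as did edgeR on all 9 libraries, without the filter or with trends in gene length and GC content removed.

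GFI1B, the repressor (ENSG00000165702, chr9:132944000-132991687, plus strand), held 101, 105 and 101 CPM in SCR, 101.1, 101.5 and 102.4 CPM after DHX34 siRNA and 84.0, 89.6 and 79.9 CPM after UPF1 siRNA. The first 2 groups overlapped and the UPF1 libraries were lower than both. Its log2 fold change was -0.29 ± 0.042 with UPF1 depleted (adjusted p = 0.000155) and -0.02 ± 0.036 with DHX34 depleted (adjusted p = 0.801).

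Of the complex's scaffold proteins, LMO2 (ENSG00000135363, chr11:33858576-33892076, minus strand) was at 115, 113 and 114 CPM in SCR, at 95.6, 95.6 and 93.6 CPM after DHX34 siRNA and at 70.8, 72.8 and 74.3 CPM after UPF1 siRNA, 3 groups without overlap. It fell by 0.27 ± 0.035 on the log2 scale with DHX34 depleted (adjusted p = 0.000353) and by 0.66 ± 0.031 with UPF1 depleted (adjusted p = 3.16e-08), and so decreased by 36.6% in the latter. LDB1, the dimerising partner of LMO2 (ENSG00000198728, chr10:102106489-102120368, minus strand), moved otherwise. Its libraries gave 145, 152 and 143 CPM in SCR, 164, 164 and 177 CPM after DHX34 siRNA and 137, 147 and 142 CPM after UPF1 siRNA. The DHX34 libraries were above all others, with a log2 difference of 0.20 ± 0.042 that missed the threshold (adjusted p = 0.00659), and the UPF1 difference was -0.06 ± 0.036 (adjusted p = 0.252). TAL1, the basic helix-loop-helix member (ENSG00000162367, chr1:47216290-47232225, minus strand), overlapped across all 3 groups, with 139.7, 144 and 148 CPM in SCR, 139.6, 135 and 150.0 CPM after DHX34 siRNA and 136, 136 and 144 CPM after UPF1 siRNA. Its log2 differences were -0.03 ± 0.042 with DHX34 depleted (adjusted p = 0.709) and -0.06 ± 0.033 with UPF1 depleted (adjusted p = 0.168).

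The progenitor factors did not share a direction. GATA2 (ENSG00000179348, chr3:128479427-128493201, minus strand) was at 321, 317 and 317 CPM in SCR, 261, 262 and 249.5 CPM after DHX34 siRNA and 264.5, 263.5 and 252.6 CPM after UPF1 siRNA. Both knockdowns lay below SCR and overlapped each other. GATA2 fell by 0.31 ± 0.036 with DHX34 depleted (adjusted p = 0.000192) and by 0.30 ± 0.028 with UPF1 depleted (adjusted p = 6.41e-06) on the log2 scale. With length and GC trends removed the difference with DHX34 depleted was -0.48.

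RUNX1 (ENSG00000159216, chr21:34787801-36004667, minus strand) gave 53.6, 57.0 and 55.4 CPM in SCR, 65.0, 61.7 and 65.1 CPM after DHX34 siRNA and 78.3, 78.8 and 76.8 CPM after UPF1 siRNA. The 3 groups did not overlap. RUNX1 rose with UPF1 depleted by a log2 fold change of 0.49 ± 0.036 (adjusted p = 9.3e-07), a gain of 40.1%, and with DHX34 depleted by 0.21 ± 0.042 (adjusted p = 0.00451). With counts scaled by the mean length of the gene's isoforms the UPF1 value was 0.28 (adjusted p = 0.0038). The DHX34 call was lost whichever of the 6 libraries was dropped (adjusted p from 0.00724 to 0.025), and the value was 0.12 with length-scaled counts (adjusted p = 0.154) and 0.06 with length and GC trends removed (adjusted p = 0.248).

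MYB (ENSG00000118513, chr6:135181308-135219173, plus strand) was at 192, 197 and 196 CPM in SCR, 193, 183 and 190.5 CPM after DHX34 siRNA and 234, 235 and 241 CPM after UPF1 siRNA. The UPF1 libraries exceeded the other 6. MYB rose by a log2 fold change of 0.27 ± 0.027 with UPF1 depleted (adjusted p = 9.52e-06), and its difference with DHX34 depleted was -0.05 ± 0.035 (adjusted p = 0.351).

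These fold changes are relative to TMM size factors. On log2(TPM + 0.5), where no such factor is applied, the median of all genes itself lay at 0.13 in the DHX34 comparison and 0.17 in the UPF1 comparison, and the factors other than RUNX1 lay higher than with TMM in both comparisons, RUNX1 with DHX34 depleted only. On that scale limma called 0 of the 10 with DHX34 depleted and 4 with UPF1 depleted (LMO2 and NFE2 lower, RUNX1 and MYB higher).

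The difference between the knockdowns was tested directly. UPF1-depleted cells had less GATA1 (log2 difference -0.30 ± 0.033), KLF1 (-0.33 ± 0.036), LMO2 (-0.37 ± 0.032), NFE2 (-0.27 ± 0.031), GFI1B (-0.25 ± 0.041) and LDB1 (-0.23 ± 0.040) than DHX34-depleted cells, and more RUNX1 (0.30 ± 0.035) and MYB (0.34 ± 0.031). These 8 passed the threshold, the largest adjusted p being 0.00116 for LDB1. Among all 17435 genes tested, 7.47% were called lower and 9.89% higher. GATA2 (0.03 ± 0.033, adjusted p = 0.576) and TAL1 (-0.02 ± 0.042, adjusted p = 0.787) were not called. The calls of LDB1 and GFI1B were lost without UPF1 knockdown replicate 1, and that of LDB1 also without UPF1 knockdown replicate 3. With length-scaled counts the calls of RUNX1 (0.18, adjusted p = 0.0179) and LDB1 (-0.23, adjusted p = 0.00536) were lost.

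**Figure D2:**
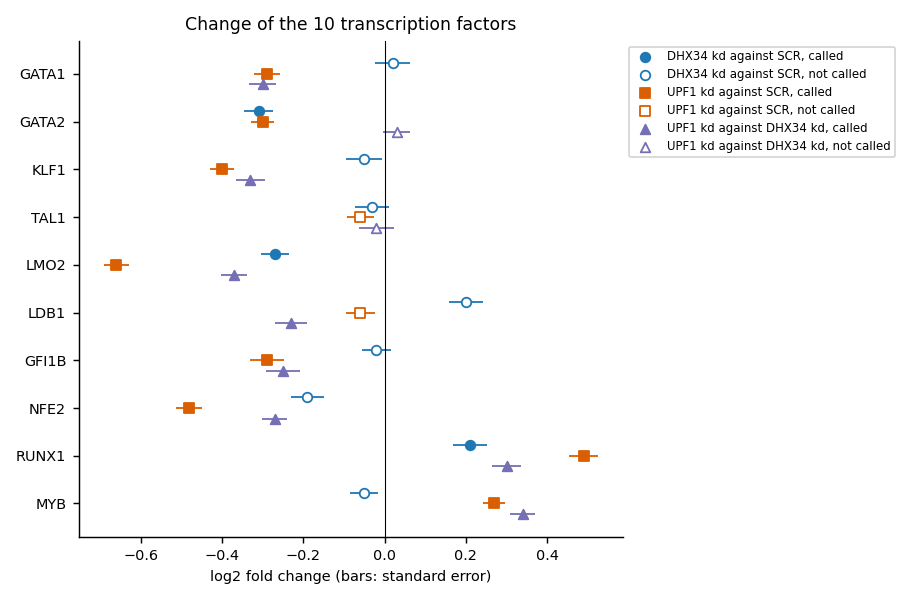
Log2 fold change (x axis) with its standard error for each factor in the 3 comparisons, filled where the adjusted p was at most 0.005. UPF1 depletion spans -0.66 for LMO2 to 0.49 for RUNX1, DHX34 depletion spans -0.31 for GATA2 to 0.21 for RUNX1.

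The 10 genes have 94 matched transcripts, of which 30 reached a mean of 1 TPM and 5% of their gene in some group. Expected counts are salmon's assignment of reads among overlapping isoforms, so a shift between similar isoforms can come from the assignment. MYB accounts for 26 of the 28 transcripts annotated as NMD targets, with 1 each from RUNX1 and LMO2. MYB transcripts annotated as NMD targets are shown by sequence, read from GENCODE transcripts on GRCh38, so that the stop codons can be seen. 3 inserted exons of MYB were singled out after their values were seen. In the lines below the stop codon that ends each reading frame is in capitals. MYB-214 carries a 122-base exon (chr6:135194960-135195081), shown from its first base to the stop at chr6:135194960-135195064. MYB-202 carries a 56-base exon (chr6:135199526-135199581) that contributes 1 coding base before the stop, shown with the end of the exon before it (chr6:135198992-135199050 and chr6:135199526-135199529). MYB-204 carries a 256-base exon that is read through and shifts the frame, so that the stop follows 44 bases into the next exon, and its sequence is not shown. All are on the plus strand.
MYB-214, 122-base exon: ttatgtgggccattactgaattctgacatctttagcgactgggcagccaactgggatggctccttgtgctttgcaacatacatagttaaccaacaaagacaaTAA
MYB-202, 56-base exon: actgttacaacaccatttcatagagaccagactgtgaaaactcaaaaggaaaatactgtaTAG

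None of the 3 exons is a multiple of 3 bases long. The stop codons lie 875 bases (MYB-214), 512 bases (MYB-202) and 61 bases (MYB-204) before the last exon junction of their transcripts. By contrast, in the protein-coding MYB-205, which gave 55.8% of MYB in SCR, the stop lies in the last exon.

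MYB transcripts annotated as NMD targets were measured at a larger share of MYB in every UPF1-depleted library. Their summed share of MYB TPM was 8.56, 7.75 and 5.56% in SCR, 7.41, 7.27 and 7.88% after DHX34 siRNA, and 14.9, 17.1 and 15.4% after UPF1 siRNA. The UPF1 libraries exceeded the other 6, and SCR and the DHX34 knockdown overlapped. The difference from SCR was 8.5 percentage points with UPF1 depleted (exact two-sided permutation p = 0.1, the smallest that 3 libraries against 3 allow, and 0.249 after Benjamini-Hochberg adjustment over the 92 class shares tested).

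The inserted exons followed the same order. MYB-214, MYB-202 and MYB-204 are themselves counted in the NMD-annotated share, so this is not separate evidence. Transcripts with the 122-base exon held 2.24, 2.22 and 1.03% of MYB in SCR, 2.07, 1.33 and 1.62% after DHX34 siRNA and 5.06, 5.79 and 6.02% after UPF1 siRNA. Those with the 56-base exon held 3.14, 3.21 and 1.27%, then 2.16, 2.44 and 2.41%, then 3.66, 5.60 and 4.73% in the same order of groups. Those with the 256-base exon held 4.28, 2.63 and 3.2%, then 3.44, 2.96 and 3.63%, then 6.30, 5.54 and 5.50%. For each exon the UPF1 libraries were above all others. The whole isoform mix of MYB was called changed with UPF1 depleted (diffSpliceDGE, adjusted p = 0.00144), the only factor so called, where 6.28% of 10638 genes were called. That call was lost without UPF1 knockdown replicate 2 and with limma on transcript shares, and on simulated counts this usage test made about as many false calls as true ones, so it is weak support. With DHX34 depleted none of the factors was called, against 3.55% of 10531 genes, and MYB had an adjusted p of 0.256. KLF1, with 1 transcript, could not be tested for usage. The most abundant coding form, MYB-205 with 640 codons, went from 55.8 ± 3.35% of MYB in SCR to 47.9 ± 1.99% after UPF1 siRNA and 56.2 ± 1.47% after DHX34 siRNA.

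**Figure D3:**
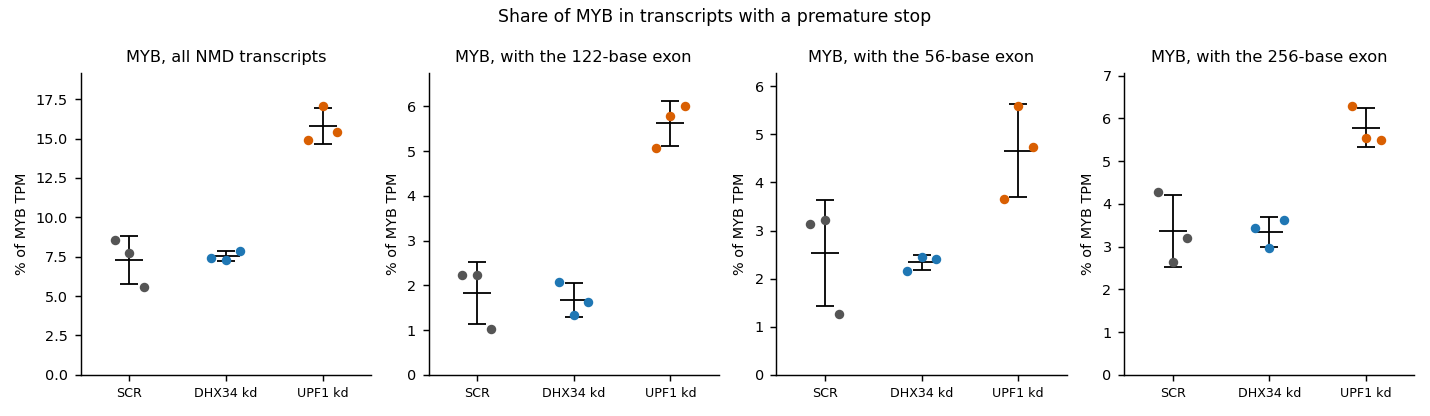
Share of MYB TPM (percent, axes from 0, a scale for each panel) in all NMD-annotated transcripts and in those with the 122-, 56- or 256-base exon, with 1 point per library and the mean and SD of 3. The NMD-annotated share is 15.8 ± 1.19% after UPF1 siRNA and 7.29 ± 1.55% in SCR.

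For RUNX1 the NMD-annotated share was lower in the knockdowns than in SCR. RUNX1-216 starts at the distal promoter. It lacks 2 exons that RUNX1-207 has, of 39 bases (chr21:34892925-34892963) and 254 bases (chr21:34886843-34887096), together 293 bases and not a multiple of 3, and its frame ends after 38 codons, 557 bases before the last junction. Its whole reading frame (chr21:35048842-35048899 and chr21:34880655-34880713, minus strand) is shown above the first 117 coding bases of RUNX1-207, which has the same start region and 480 codons (chr21:35048842-35048899, chr21:34892925-34892963 and chr21:34887077-34887096). The stop codon is in capitals, and the frames share their first 58 bases. RUNX1-207 was itself rare, at 0.154 TPM and 0.912% of RUNX1 on average in SCR.
RUNX1-216: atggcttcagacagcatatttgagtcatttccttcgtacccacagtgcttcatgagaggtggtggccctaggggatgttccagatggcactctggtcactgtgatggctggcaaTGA
RUNX1-207: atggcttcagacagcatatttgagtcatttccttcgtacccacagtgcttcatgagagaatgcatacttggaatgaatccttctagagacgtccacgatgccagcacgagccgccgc

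RUNX1-216 is the only RUNX1 transcript annotated as an NMD target, and its share of RUNX1 was 13.0, 14.1 and 12.7% in SCR, 10.6, 7.86 and 6.15% after DHX34 siRNA and 6.47, 3.39 and 3.77% after UPF1 siRNA. Every knockdown library was below every SCR library. The exact permutation p was 0.1 in each comparison, for differences of -5.06 points with DHX34 depleted and -8.71 points with UPF1 depleted. By expected counts, which weight transcripts by length, the differences were -2.57 and -4.46 points. As a transcript its log2 fold change was -1.28 ± 0.278 with UPF1 depleted (adjusted p = 0.0365, not called), on 259 to 279 expected counts in SCR. Distal-start transcripts together made up 17.5 ± 2.73% of RUNX1 in SCR, 15.8 ± 1.24% after DHX34 siRNA and 10.4 ± 2.2% after UPF1 siRNA. The protein-coding ones among them held 4.29 ± 2.74%, 7.63 ± 0.999% and 5.9 ± 0.618% in the same order, and SCR overlapped each knockdown.

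Most RUNX1 TPM thus came from transcripts that start elsewhere. RUNX1-202, which encodes the 453-codon form, was at 5.42, 6.12 and 5.83 TPM in SCR and 10.2, 9.66 and 10.0 TPM after UPF1 siRNA, and its log2 fold change was 0.53 ± 0.048 (adjusted p = 0.00219), a call that was lost whichever of the 6 libraries was dropped. Its share of RUNX1 was 29.9, 35.5 and 36.3% in SCR, 37.1, 33.6 and 36.1% after DHX34 siRNA and 42.2, 38.1 and 43.2% after UPF1 siRNA. RUNX1-203, whose 250 codons stop short of the transactivation domain, held 15 ± 2.88% in SCR, 18 ± 1.79% after DHX34 siRNA and 16.4 ± 2.25% after UPF1 siRNA, overlapping throughout.

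**Figure D4:**
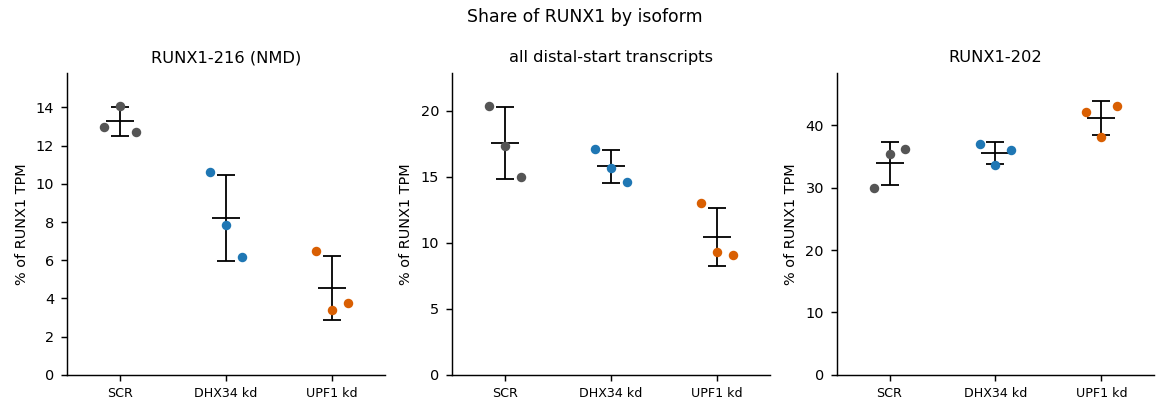
Share of RUNX1 TPM (percent, axes from 0, a scale for each panel) in RUNX1-216, in all distal-start transcripts and in RUNX1-202, with 1 point per library and the mean and SD of 3. RUNX1-216 goes from 13.3 ± 0.705% in SCR to 8.19 ± 2.23% after DHX34 siRNA and 4.55 ± 1.68% after UPF1 siRNA.

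Of the 55 transcripts of the 10 factors that could be tested, 8 were called lower and 1 higher with UPF1 depleted, where 1.62% and 0.97% of 62497 transcripts were called. The higher one was RUNX1-202. The lower ones were forms of genes that fell: GATA1-202 (-0.34), GATA2-201 (-0.33), KLF1-201 (-0.44), GFI1B-202 (-0.44), LMO2-202 (-0.67), LMO2-201 (-0.95), NFE2-201 (-0.71) and NFE2-202 (-0.45 in log2 fold change). These transcript calls were not stable: with a single library left out 0 to 7 transcripts were called, 0 without SCR replicate 1 or any of the 3 UPF1 replicates, and 1 without SCR replicate 3. With DHX34 depleted edgeR called 0 of the 55, where 0.0463% of 60416 transcripts were called. At an unadjusted p under 0.05 it gave 5 higher and 7 lower, and DESeq2 called 1 higher and 4 lower.

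Start sites and coding lengths were followed for the other factors too. GATA1-202, the full-length 413-codon form, held 99.8% of GATA1 in SCR and 99.9% in both knockdowns, and KLF1 had 1 transcript. Neither therefore entered the tests of class shares. LMO2-201, from the distal promoter, held 8.07, 7.25 and 8.32% of LMO2 in SCR, 9.18, 9.17 and 8.61% after DHX34 siRNA and 6.35, 6.90 and 6.03% after UPF1 siRNA, with no overlap between groups. NFE2-201, from the more downstream start, held 34.2, 33.2 and 30.3% of NFE2 in SCR, 34.0, 33.2 and 32.9% after DHX34 siRNA and 28.6, 28.2 and 29.0% after UPF1 siRNA, where it was lowest. LDB1-202, with 409 codons against 375 in LDB1-201, held 21.3, 19.9 and 24.7% of LDB1 in SCR, 12.9, 18.3 and 15.3% after DHX34 siRNA and 21.6, 21.5 and 22.4% after UPF1 siRNA. The DHX34 libraries were the low ones there. GFI1B-203, a 284-codon form that lacks a coding exon present in the 330-codon GFI1B-202, overlapped between SCR (15.7 ± 1.25%) and the UPF1 knockdown (18.2 ± 1.26%). Each of the shares of LMO2, NFE2, LDB1 and GFI1B had an exact permutation p of 0.1 or more and an adjusted p of 0.249 or more.

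For GATA2, GATA2-201 held 45.5% in SCR, 42.8% after DHX34 siRNA and 45.7% after UPF1 siRNA, and GATA2-202, whose 466 codons lack a short in-frame stretch of the 480-codon form, held 15.4, 13.2 and 13.6%. GATA2-203 held 22.3, 25.9 and 25.0% in that order, and each knockdown lay above SCR without overlap. For GATA2-203 in each knockdown the exact permutation p was 0.1 and the adjusted p 0.249. TAL1-202 held 83.2, 80.3 and 81.0% of TAL1 in the same order of groups.

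RefSeq promoter sequences (GRCh38.p14) were found for 8 of the 10 factors, all but LMO2 and NFE2, with 11 start sites. 4 motifs were searched on both strands of the 250 bases before each start: the GATA motif (AGATAA, with the variant TGATAA, the variant AGATAG and the variant TGATAG), the motif type that KLF1 binds (CCNCNCCC), the E-box CAGNTG and the RUNX motif TGTGGT. Of the 11 promoters 3 held a GATA motif (in GFI1B, KLF1 and TAL1), which 22.3% of all 35116 promoters held. For CCNCNCCC it was 8 of the 11 against 53.4% of all promoters, for CAGNTG 4 against 42.5%, and for TGTGGT 1 against 11%. The promoters of KLF1 (chr19:12887202-12887451, minus strand) and GATA1 (chrX:48786340-48786589, plus strand), a pair of erythroid factors that fell together with UPF1 depleted, are shown with these motifs in capitals.
KLF1: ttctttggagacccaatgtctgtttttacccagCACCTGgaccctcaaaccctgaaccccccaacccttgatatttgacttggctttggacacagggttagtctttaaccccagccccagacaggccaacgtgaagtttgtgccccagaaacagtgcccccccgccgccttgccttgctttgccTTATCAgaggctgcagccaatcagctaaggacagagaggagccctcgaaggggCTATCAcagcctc
GATA1: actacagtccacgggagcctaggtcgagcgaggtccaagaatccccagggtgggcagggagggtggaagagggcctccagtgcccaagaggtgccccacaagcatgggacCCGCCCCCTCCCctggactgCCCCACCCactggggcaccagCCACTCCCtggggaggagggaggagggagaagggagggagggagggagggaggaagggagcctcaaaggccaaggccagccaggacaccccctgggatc

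KLF1 holds 2 GATA motifs and 1 E-box in this window, and GATA1 holds 4 overlapping or separate CCNCNCCC matches and no GATA motif. A match of letters is a description and does not show binding.

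Partners of the 10 factors were followed as a list of 19 genes, all tested. With UPF1 depleted 3 rose and 4 fell (median log2 fold change -0.06), and with DHX34 depleted 3 rose and 1 fell (median -0.01). Over all genes tested 12.4% rose and 12.9% fell with UPF1 depleted, and 5.54% and 4.86% with DHX34 depleted, the background for this list and those that follow. The UPF1 counts of the partners lie near it. ZFPM1, the GATA1 cofactor FOG1, rose with DHX34 depleted (log2 fold change 0.33 ± 0.040, adjusted p = 0.000228) and fell with UPF1 depleted (-0.47 ± 0.046, adjusted p = 7.17e-06). KDM1A, the demethylase recruited by GFI1B, fell with UPF1 depleted (-0.18), as did HDAC2 (-0.21) and SSBP4 (-0.23), a stabiliser of LDB1. MAFG, a dimer partner of NFE2, rose (0.24), as did the E-protein TCF12 (0.17) and the coactivator CREBBP (0.24). CREBBP (0.38) and EP300 (0.27) rose with DHX34 depleted and SSBP2 fell (-0.34).

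Other haematopoietic regulators were a list of 22, of which 19 were tested. SPI1, which encodes PU.1, the myeloid factor that antagonises GATA1, stood at 25.1 CPM in SCR, 51.4 CPM after DHX34 siRNA and 18 CPM after UPF1 siRNA. It rose with DHX34 depleted (1.03 ± 0.056, adjusted p = 1.45e-06) and fell with UPF1 depleted (-0.49 ± 0.064, adjusted p = 6.93e-05). With DHX34 depleted MEIS1 also rose (0.50) and HHEX fell (-0.39), 2 higher and 1 lower in all. With UPF1 depleted STAT5A alone rose (0.15), and 5 fell, among them EGR1 (-1.21), IKZF1 (-0.42) and HHEX (-0.39).

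Erythroid genes, a list of 20 that these factors are known to act on or with, were mostly lower with UPF1 depleted: 11 fell and 1 rose, with a median log2 fold change of -0.40. On the log2 scale EPB42, a protein of the red cell membrane skeleton, fell by 1.25 ± 0.118, the embryonic globin HBE1 by 1.11 ± 0.048, the alpha globin HBA2 by 1.02 ± 0.035 and the fetal globin HBG2 by 0.96 ± 0.038. TFRC, the transferrin receptor, rose by 0.40 ± 0.030. With DHX34 depleted 7 fell and 1 rose (median -0.15): EPB42 (-1.0), CA1 (-0.78) and HBA2 (-0.42) were among those that fell, and FECH (0.23) rose. HBA1 with HBA2 and HBG1 with HBG2 are near-identical pairs between which reads may be split, so single members are uncertain.

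Megakaryocyte genes were a list of 16, of which 10 were tested. With DHX34 depleted 4 rose and 1 fell, with a median of 0.65: THBS1 (3.31 ± 0.140), ITGA2B (1.91 ± 0.085), ITGB3 (1.83 ± 0.198) and TUBB1 (0.64 ± 0.080) rose, and GP1BB (-0.45 ± 0.038) fell. ITGB3 averaged under 1 CPM and was named after its values were seen. The median also rests on CD9, GP1BA and PLEK, each under 1 CPM in SCR and not called. With UPF1 depleted GP1BB (-0.25) and F2R (-0.33) fell and none rose (median -0.04). Levels were mostly low. ITGA2B, the platelet integrin subunit, went from 3.90 to 14.7 CPM with DHX34 depleted, and GP9 and SELP were at 0 in every library. GP1BB was higher, at 185 CPM in SCR and 136 CPM after DHX34 siRNA. The summed level of the list was 141.5 to 152.7 TPM in SCR and 126.1 to 137.2 TPM after DHX34 siRNA.

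**Figure D5:**
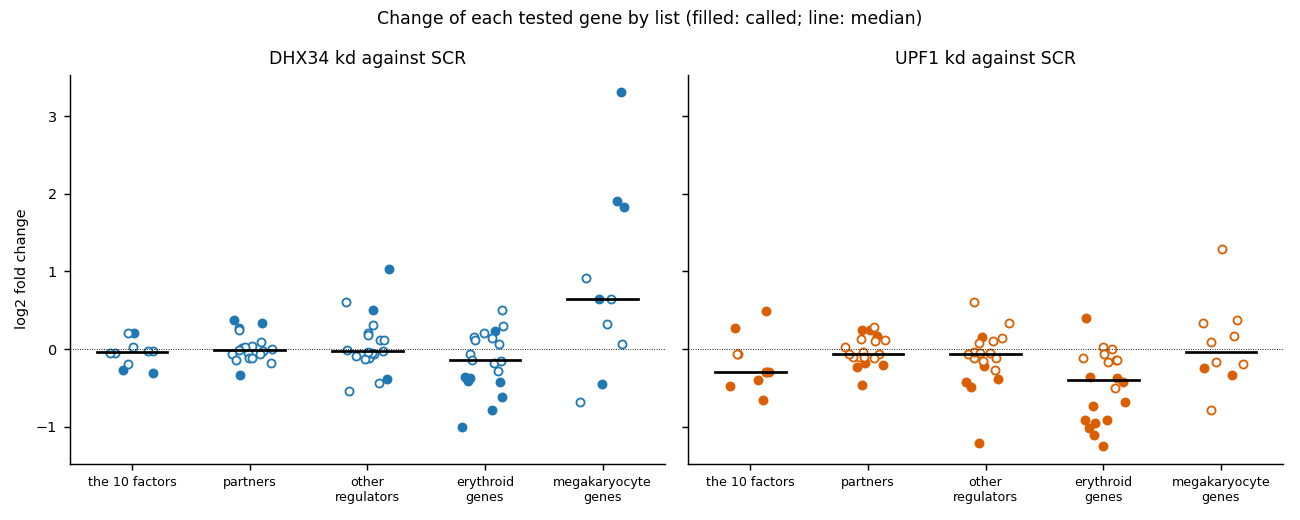
Log2 fold change of each tested gene (y axis) in the 10 factors and 4 related gene lists, for DHX34 (left) and UPF1 (right) depletion, filled where the adjusted p was at most 0.005, with the list median as a line. The erythroid median is -0.40 with UPF1 depleted and the megakaryocyte median 0.65 with DHX34 depleted, the latter over 10 genes, some of them near the floor and not called.

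Markers of other cell types were checked beside these lists. Of 10 granulocyte and monocyte markers 1, LYZ, was above 1 TPM in every library. Their summed level was 14.6 to 15.3 TPM in SCR, 31.5 to 35.0 TPM after DHX34 siRNA and 12.9 to 13.8 TPM after UPF1 siRNA. Most of that sum was LYZ, at 13.8 to 14.6, 29.7 to 32.8 and 11.8 to 12.5 TPM in the same order of groups. With DHX34 depleted 4 of the 10 could be tested and 2 were called higher. LYZ rose with DHX34 depleted (0.96 ± 0.060) and so did PRTN3 (2.59 ± 0.396). PRTN3 was near the floor, with a mean of 0.148 CPM in SCR and 0.889 CPM after DHX34 siRNA. FCN1 was at 0 in every library, and MPO, ELANE and CD14 were near 0. The summed level of 8 lymphoid markers was 2.73 to 3.13 TPM in SCR and 4.51 to 4.91 TPM after DHX34 siRNA, with CD8A and MS4A1 at 0. Of 8 genes listed as non-haematopoietic markers 4 were tested. EPCAM (71.6 to 73.4 TPM) and PECAM1 (2.20 to 3.45 TPM) were already present in SCR, so they are not read as signs of another cell type. COL1A1 rose with DHX34 depleted (2.78 ± 0.161), where COL1A2 (-0.58), EPCAM (-0.15) and PECAM1 (0.33) were not called. EPCAM (-0.26) and PECAM1 (-0.59) fell with UPF1 depleted, and KRT5 was at 0 in every library. The markers named were chosen after their values were seen. The part of these in the changes of the 10 factors was not tested.

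For each of the 8 factors called in either knockdown, the 3 protein-coding genes with the most similar pattern were found among 9499 genes, by the root mean square difference over 9 libraries of log2 CPM centred on SCR. The closest gene is given here for all of them but LMO2. TUBA1C was closest to KLF1 (0.023), MRPL55 to GATA1 (0.025), HSPBP1 to GATA2 (0.025), KPTN to GFI1B (0.032), TBPL1 to NFE2 (0.036), BRPF3 to RUNX1 (0.042) and GRB10 to MYB (0.027). At these digits a second gene was as close to GATA2 (ACBD6), NFE2 (ATP5MC1), RUNX1 (IRAK4) and MYB (N4BP2L2).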

How the data were processed

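RNA-seq libraries of K562 cells were compared in 3 groups of 3. The authors quantified reads with Salmon against Ensembl transcripts on GRCh38, and the deposited tables hold an expected count, a TPM and an effective length per transcript. The authors' deposited sleuth tables (p-values, q-values and effects) and SUPPA2 tables (differences in splicing) hold their own comparisons and were not used. GENCODE release 44, another annotation release, gave symbols, biotypes and coordinates by transcript identifier: 198775 of 203027 matched, with 98.1% of counts, and 85.8% had the same length in both. Lengths differed for GATA2-203 most among the transcripts named.

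Expected counts were summed per gene and rounded where a tool needed whole numbers. Genes and transcripts were tested with edgeR 4.0.16 (R 4.3.3; quasi-likelihood, TMM, filterByExpr at its minimum count of 10), using the 6 libraries compared, and called at an adjusted p (Benjamini-Hochberg) no higher than 0.005. Isoform usage was tested with diffSpliceDGE (Simes, at most 0.05) and class shares with exact permutation tests in SciPy 1.17.1. Scripts were tested on simulated data, where the gene tests made few false calls, the edgeR transcript test missed most changed transcripts, and diffSpliceDGE made about as many false calls as true ones. Alternatives used DESeq2 1.42.0, limma 3.58.1 with pseudocounts of 0.5 and 0.1, other filters and scalings, the replicate block, and leaving out each library. The members and lists were chosen with earlier results of these data known. The shares of MYB exons and of distal RUNX1 starts, and TPM relative to the median gene, were added after seeing the data. All 10 members were named. Transcripts were named mainly among those reaching 1 TPM on average and 5% of their gene in a group, and not all of these are reported. MYB-214, MYB-202 and RUNX1-207 fell short of this and are given for their sequences. Up to 4 called list genes per direction by fold change, with at least 1 CPM, were named, and some others for their levels. Some list genes and 1 exon sequence are not reported here.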

Additional observations from a re-analysis of the deposited data

How the results depend on the processing

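With DHX34 depleted the count of factors called was 3, and 5 at an adjusted p of at most 0.05, with DESeq2, without the filter or with all 9 libraries, where LDB1 and NFE2 were added. It was 0 with limma on log2(TPM + 0.5) or log2(TPM + 0.1). Leaving out 1 library gave 2 to 3. With UPF1 depleted 8 were called, 4 and 3 with limma at the larger and smaller pseudocount, 9 (with TAL1) with length and GC trends removed, and 8 without any single library. Between the knockdowns limma called 1 and 0 and length-scaled counts gave 6, against 8, and leaving out 1 library gave 6 to 8. Transcript calls with DHX34 depleted were 0, with 4 at 0.05 and 5 by DESeq2. With UPF1 depleted they were 9, with 16 at 0.05, 17 by DESeq2, 0 with limma, and 0 to 7 without 1 library. Isoform usage gave 0 to 1 calls without 1 library in either knockdown, and limma on shares gave 0 with UPF1 depleted.

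Differences near 0 changed sign. With DHX34 depleted, at both pseudocounts of limma, KLF1 was at 0.07, TAL1 at 0.14, GFI1B at 0.15 and MYB at 0.11. Relative to the median gene TAL1 and GFI1B were each at 0.01. GATA1 was at -0.03 with length and GC trends removed. Leaving out 1 library, GATA1 ran from -0.01 (SCR replicate 2) to 0.06, GFI1B from -0.02 to 0.0006 (SCR replicate 2) and TAL1 from -0.06 to 0.0029 (DHX34 knockdown replicate 2). With UPF1 depleted limma gave TAL1 at 0.17 and LDB1 at 0.14 and 0.15, and TAL1 was at 0.0027 relative to the median gene. Between the knockdowns GATA2 was at -0.0022 with length-scaled counts and ran from -0.0048 (DHX34 knockdown replicate 3) to 0.05 without 1 library. TAL1 was at 0.03 with limma and ran from -0.05 to 0.01 (without that same library). The NMD-annotated share of MYB with DHX34 depleted was between -0.633 (SCR replicate 3) and 0.867 points from SCR without 1 library. The causes were not tested.

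The labels give the groups the same replicate numbers, but samples with the same number did not deviate together (r from -0.088 to 0.079). With the replicate block 2, 8 and 8 factors were called in the 3 comparisons, and 0 transcripts with UPF1 depleted. Samples are few, and counts of rare isoforms are low.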
